A study of Homo sapiens with 60 samples.

Results

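The genes described here are 7 dual-specificity phosphatases (DUSP1, DUSP4, DUSP5, DUSP6, DUSP8, DUSP10, and DUSP16) and 3 genes of the Sprouty family (SPRY2, SPRY4, and SPRED1), which were taken by gene name from a table of 62703 genes. On GRCh38, DUSP1 (ENSG00000120129.6) lies at chr5:172768096-172771195, DUSP5 (ENSG00000138166.6) at chr10:110497907-110511533, DUSP6 (ENSG00000139318.8) at chr12:89347235-89352501, and SPRY4 (ENSG00000187678.10) at chr5:142310427-142326455, and the counted tags stem from the 3′ ends of their transcripts. They were measured by 3′ mRNA sequencing of 1321N1, an established human astrocytoma cell line. Cells were exposed to 2.55 µM sodium metaarsenite (arsenic), 2.3 µM cadmium chloride (cadmium), or 20 µM mercury chloride (mercury), or were left non-treated, and were collected at 1.5, 3, 6, 12, or 24 h. With 3 libraries for each metal or control and time point, the 20 groups held 60 libraries. The doses differ between metals and were described by the authors as equitoxic, so a difference between metals is one between these doses. The metal was given with fresh full medium, and whether the non-treated cells also received fresh medium is not given in the sources used here. The labels call the triplicates technical, so p-values measure the spread between these libraries, which may be smaller than that between independent cultures.

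Growth factor receptors pass their signal through RAS and a chain of kinases to the MAP kinase ERK, whereas stress and cytokines mainly activate the related kinases JNK and p38. Dual-specificity phosphatases switch these MAP kinases off by removing phosphate from both the threonine and the tyrosine that activate them, and Sprouty and SPRED proteins restrain the pathway further up, between the receptor and RAF. Several of these inhibitors are themselves transcribed when ERK is active, and are therefore read as negative feedback genes of the pathway. DUSP1 and DUSP4 are inducible phosphatases of the nucleus that act on ERK, JNK, and p38, DUSP5 is a nuclear phosphatase of ERK, and DUSP6 is its cytoplasmic counterpart. DUSP8, DUSP10, and DUSP16 act mainly on JNK and p38.

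Counts per library ranged from 2215276 to 4404609, so that 3 counts corresponded to between 0.682 and 1.36 CPM (counts-per-million, relative to the normalized library size). The share of mitochondrial counts had a median of 6.11%, but was 1.35% in cadmium replicate 1 at 6 h and 1.91% in arsenic replicate 2 at 3 h. Calls of the 9 tested genes that use these 2 libraries are therefore given with and without them. Of the astrocyte markers, VIM (median 4488 CPM), CD44, and SOX9 had counts in all libraries, whereas AQP4, ALDH1L1, and SOX2 were at 0 and GFAP had 6 counts over all 60 libraries. CPM values are relative to all RNA of the culture, and fewer cells with a transcript cannot be told apart from less of it per cell.

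Of the 10 genes, 9 had enough counts to be tested among 12341 genes. DUSP10, with 0 to 13 counts per library, did not pass the filter on low counts. Against the non-treated cells collected at that time, the 9 genes gave 33 calls (adjusted p under 0.05) in 135 tests, and all 33 were higher with metal. The 0 lower calls in edgeR compare with 2 lower values at an unadjusted p under 0.05. These were DUSP16 with arsenic at 1.5 h and DUSP8 with cadmium at 12 h. DESeq2 gave 0 lower calls too, but gave no adjusted p for 28 of the 135 tests, which it could not call. Mercury accounted for 22 of the calls, cadmium for 8, and arsenic for 3. A total of 26 of the 33 calls held whichever of the 60 libraries was left out, and the other 7 are named with their genes below. The 3 comparisons of a time point share their non-treated libraries, so the metals are not independent of each other in these comparisons.

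With arsenic, 0, 0, 0, 1, and 2 of the 9 genes were called higher from the first to the last of the 5 times, and 0 were called lower. Over all genes tested, arsenic raised 0.0648%, 0.122%, 0.608%, 2.37%, and 6.54% of them at these times and lowered 0.0081%, 0.0162%, 0.308%, 1.74%, and 7.75%. At 1.5, 3, and 6 h, where edgeR called 0 of the 9 genes, 1 gene each time had an unadjusted p under 0.05. Over all 12341 genes, 1219, 909, and 1164 passed that threshold in either direction. DESeq2 called none of the 9 at these times. The median log2 fold change (LFC) of the 9 genes with arsenic was -0.06, 0.13, 0.24, -0.14, and 0.37 from 1.5 to 24 h, while that of all genes tested stayed within 0.03 of 0 in all comparisons.

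With cadmium, 0, 0, 4, 3, and 1 of the 9 genes were called higher at the same times and 0 lower. The background for cadmium was 0%, 0.203%, 1.6%, 5.19%, and 1.56% of all genes higher and 0%, 0%, 0.446%, 2.99%, and 0.632% lower. At 1.5 h, edgeR called 0 genes of the whole table with cadmium, against 991 at an unadjusted p under 0.05 and 1 higher and 3 lower by DESeq2. At 3 h, edgeR called 0 genes lower and DESeq2 called 1, with 1010 genes at an unadjusted p under 0.05 in either direction. Among the 9 genes, 1 at 1.5 h and 3 at 3 h had an unadjusted p under 0.05, and DESeq2 called none of them. The median LFC of the 9 genes was 0.03, 0.22, 0.85, 0.57, and 0.29.

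With mercury, 3, 5, 4, 5, and 5 of the 9 genes were called higher and 0 lower. The background for mercury was 0.478%, 1.39%, 4.49%, 8.89%, and 13.9% of all genes higher and 0.0891%, 0.154%, 2.99%, 7.16%, and 13.9% lower. The median LFC of the 9 genes was 0.82, 1.63, 0.84, 1.37, and 1.33. The share of the 9 genes called higher was above the background at each of the 5 times. Since the genes were chosen with earlier results of these data known, this share is a description and no test.

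**Figure D1:**
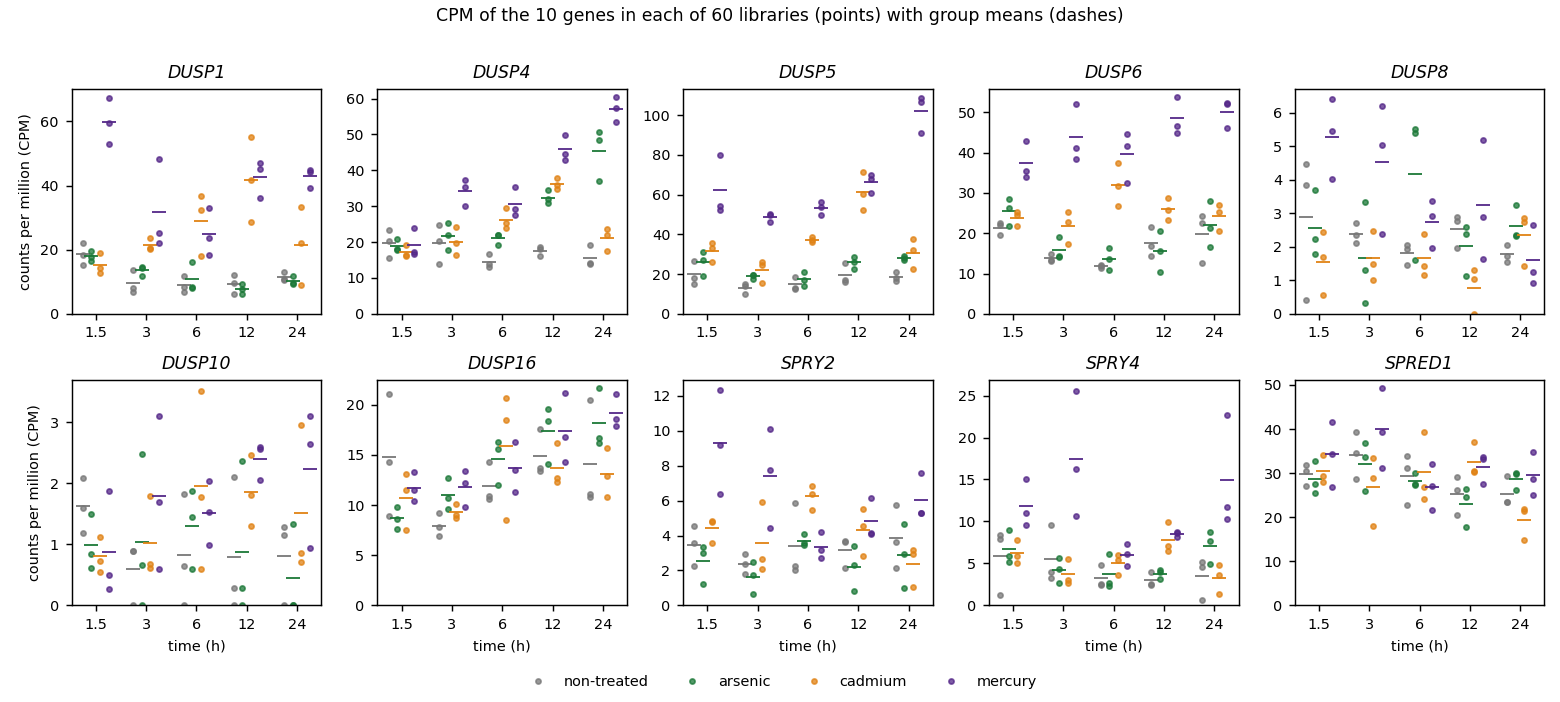
Level in CPM (vertical axis, linear, starting at 0, each panel on its own scale) of the 10 genes against time (horizontal axis, 1.5 to 24 h) in non-treated cells (grey) and cells given arsenic (green), cadmium (orange), or mercury (purple). Points are the 60 libraries and dashes the means of 3. DUSP1, DUSP5, and DUSP6 lie above the non-treated libraries at all 5 times with mercury, while SPRED1 and DUSP16 overlap at most times.

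DUSP1 is an immediate early gene that is transcribed within minutes of growth factors, heat, or oxidants. At 1.5 h, it stood at 53.0, 67.2, and 59.6 CPM in the mercury libraries and at 18.5, 22.0, and 15.1 CPM in the non-treated ones, and the groups did not overlap. This was an LFC of 1.69 ± 0.27 (adjusted p = 2.6e-05), where the error is the standard error (SE) and the test edgeR's quasi-likelihood test. At 3 h, the mercury libraries gave 22.0, 48.3, and 25.2 CPM against 6.94, 13.8, and 7.98 CPM in non-treated cells. Mercury replicate 2 was the highest of the 6, the groups did not overlap, and the LFC was 1.75 ± 0.30 (adjusted p = 4.0e-05). At 6 h, mercury gave 18.3, 23.5, and 32.9 CPM against 6.94, 11.7, and 8.35 CPM (LFC 1.47 ± 0.32, adjusted p = 0.00076). The mean with mercury was lowest at 6 h. At 12 h, the libraries were higher again, with 36.0, 47.0, and 45.1 CPM against 6.15, 9.57, and 12.0 CPM (LFC 2.20 ± 0.30, adjusted p = 2.4e-08). At 24 h, the mercury libraries lay at 45.0, 44.3, and 39.3 CPM and the non-treated at 10.8, 10.5, and 13.0 CPM (LFC 1.91 ± 0.29, adjusted p = 2.2e-07).

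DUSP1 followed another course with cadmium. At 1.5 h, the cadmium libraries (12.6, 19.1, and 14.3 CPM) overlapped the non-treated ones (LFC -0.28 ± 0.30). At 3 h, they lay at 20.1, 23.5, and 20.5 CPM, all above the non-treated libraries, but the LFC of 1.16 ± 0.31 (adjusted p = 0.11) did not pass the test. That result depended on the processing, since it was called without a filter on low counts (LFC 1.16, adjusted p = 0.0013), with a replicate block (LFC 1.17, adjusted p = 0.043), and in a fit of only the groups compared (LFC 1.16, adjusted p = 0.031). At 6 h, cadmium gave 18.2, 36.7, and 32.4 CPM (LFC 1.67 ± 0.32, adjusted p = 0.00031), and without replicate 1, which had a low mitochondrial share, the LFC was 1.93 ± 0.33. The highest cadmium level came at 12 h, with 28.6, 41.9, and 55.1 CPM, which was 4.53-fold above non-treated cells (LFC 2.18 ± 0.30, adjusted p = 7.6e-08). At 24 h, replicates 1 and 2 lay above the non-treated libraries, and replicate 3 below them (22.0, 33.2, and 8.98 CPM). The LFC of 0.93 ± 0.30 (adjusted p = 0.091) did not pass, and without replicate 3 or without a filter on low counts it did (LFC 1.27, adjusted p = 0.0053, and LFC 0.94, adjusted p = 0.011, respectively).

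With arsenic, DUSP1 was not called at any time point. Its values were 17.8, 16.5, and 19.7 CPM at 1.5 h and 9.70, 11.9, and 9.42 CPM at 24 h, and overlapped the non-treated libraries both times. The 5 LFCs lay between -0.26 and 0.50, with 95% intervals that reached 1.17 at most.

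The promoter of DUSP1 is shown beside those of DUSP8 and DUSP6 because DUSP1 and DUSP6 were raised by mercury and DUSP8 gave no call, and because DUSP1 and DUSP8 alone held a motif that was searched. A RefSeq promoter (GRCh38.p14) was matched by symbol for 8 of the 10 genes, and the 250 bases before the start were searched on both strands for 7 motifs. These were the cyclic AMP response element (CRE, TGACGTCA), AP-1 (TGANTCA), a heat-shock element (GAANNTTC), the ATF4 composite element (TGATGNAAN), an ETS site (CCGGAAGT), the CArG box of SRF, and the E-box (CACGTG). Capitals mark the matches, and the sequences read 5′ to 3′ toward the start, which follows the last base. The windows are chr5:172771196-172771445 for DUSP1, chr11:1572272-1572521 for DUSP8, and chr12:89352502-89352751 for DUSP6, all on the minus strand.
DUSP1: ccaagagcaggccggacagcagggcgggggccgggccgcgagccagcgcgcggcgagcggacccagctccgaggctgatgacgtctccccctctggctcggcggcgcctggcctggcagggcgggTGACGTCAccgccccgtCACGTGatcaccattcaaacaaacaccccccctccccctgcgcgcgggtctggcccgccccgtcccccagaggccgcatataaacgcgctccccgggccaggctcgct
DUSP8: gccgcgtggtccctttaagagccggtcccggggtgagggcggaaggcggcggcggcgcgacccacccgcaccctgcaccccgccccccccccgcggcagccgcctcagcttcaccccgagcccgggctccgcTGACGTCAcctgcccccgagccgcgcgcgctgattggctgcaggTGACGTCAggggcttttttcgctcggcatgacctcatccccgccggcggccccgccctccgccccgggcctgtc
DUSP6: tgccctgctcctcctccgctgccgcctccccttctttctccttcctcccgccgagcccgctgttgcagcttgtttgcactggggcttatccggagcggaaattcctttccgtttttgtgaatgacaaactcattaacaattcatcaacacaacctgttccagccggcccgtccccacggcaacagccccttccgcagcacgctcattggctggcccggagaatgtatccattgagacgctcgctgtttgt
The DUSP1 window holds a CRE at bases -125 to -118 from the start and an E-box at -108 to -103. The DUSP8 window holds 2 CREs, at -118 to -111 and at -74 to -67. No matches overlapped, and the 7 motifs were not found in the windows of the other 6 genes, DUSP6 included, at any listed start. Over 35116 promoter windows of the same length, 1.65% held a CRE, 6.57% AP-1, 5.78% the heat-shock element, 3.13% the ATF4 element, 3.42% the ETS site, 1.16% the CArG box, and 6.34% the E-box. A match is a description of the letters only.

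DUSP5, the nuclear phosphatase of ERK, showed the highest fold change of the 9 genes. With mercury it was already high at 1.5 h, at 54.3, 52.3, and 79.7 CPM against 18.2, 14.99, and 26.7 CPM in non-treated cells (LFC 1.65 ± 0.20, adjusted p = 4.6e-09). It lay at 46.3, 50.4, and 49.8 CPM at 3 h (non-treated 13.9, 14.97, and 9.75) and at 49.7, 56.3, and 53.5 CPM at 6 h (non-treated 12.7, 18.6, and 13.2). The LFCs were 1.92 ± 0.21 and 1.84 ± 0.21, and at neither time did the groups overlap. The level was 61.0, 68.0, and 69.8 CPM at 12 h (LFC 1.78 ± 0.19, adjusted p = 2.9e-11). At 24 h, the mercury libraries reached 91.0, 107, and 108 CPM against 16.7, 18.1, and 21.1 CPM, which was 5.47-fold (LFC 2.45 ± 0.19, adjusted p = 3.4e-17).

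Cadmium raised DUSP5 from 6 h on. The LFC was 0.68 ± 0.20 (adjusted p = 0.43) at 1.5 h and 0.77 ± 0.22 (adjusted p = 0.19) at 3 h, where the 3 cadmium libraries (25.8, 24.4, and 15.5 CPM) lay above the 3 non-treated ones. Without cadmium replicate 3, the lowest, the value at 3 h was called (LFC 0.96, adjusted p = 0.029). At 6 h, the libraries gave 36.1, 38.6, and 37.0 CPM (LFC 1.32 ± 0.22, adjusted p = 1.5e-05), and 1.35 ± 0.24 without replicate 1. They reached 71.2, 60.1, and 52.3 CPM at 12 h, against 15.9, 25.6, and 16.8 CPM in non-treated cells (LFC 1.66 ± 0.19, adjusted p = 9.0e-10). At 24 h, DUSP5 was the only gene of the 9 called with cadmium, at 37.7, 22.6, and 32.0 CPM (LFC 0.73 ± 0.20, adjusted p = 0.033). This call was lost without cadmium replicate 1 or 3 or non-treated replicate 1 or 2 (adjusted p 0.077 to 0.30), and in a fit of only the groups compared (LFC 0.73, adjusted p = 0.27).

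With arsenic, DUSP5 was called at 24 h alone, at 27.1, 29.2, and 28.0 CPM against 16.7, 18.1, and 21.1 CPM (LFC 0.59 ± 0.20, adjusted p = 0.039). The groups did not overlap, but the call was lost without any one of the 3 arsenic libraries or without non-treated replicate 1 or 2 (adjusted p 0.066 to 0.16). A fit of only the groups compared lost it too (LFC 0.60, adjusted p = 0.061). At 3 h, the arsenic libraries (17.6, 19.7, and 19.7 CPM) lay above the non-treated ones, with an LFC of 0.56 ± 0.23 (adjusted p = 0.58), and 0.52 ± 0.26 without replicate 2, whose mitochondrial share was low.

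DUSP4, the other inducible nuclear phosphatase, was the gene that arsenic changed most among the 9, and the one of the 4 most responsive phosphatases that was not called with mercury at 1.5 h. With arsenic it lay at 20.9, 18.0, and 17.9 CPM at 1.5 h, inside the non-treated range (15.6, 23.4, and 20.3), and at 17.9, 21.9, and 25.3 CPM at 3 h. At 6 h, the arsenic libraries (19.2, 21.9, and 22.0 CPM) were above the non-treated (13.1, 16.8, and 13.8) without passing the test (LFC 0.53 ± 0.20, adjusted p = 0.28). At 12 h, arsenic gave 31.9, 30.8, and 34.5 CPM against 18.2, 16.1, and 18.6 CPM (LFC 0.88 ± 0.18, adjusted p = 0.00058). At 24 h it gave 37.1, 50.6, and 48.6 CPM against 19.1, 14.1, and 13.8 CPM, or 2.89-fold (LFC 1.53 ± 0.18, adjusted p = 4.3e-10). The means with arsenic up to 6 h were thus below those at 12 and 24 h, while the non-treated means stayed between 14.6 and 19.8 CPM.

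With mercury, DUSP4 overlapped the non-treated libraries at 1.5 h (23.8, 16.8, and 17.3 CPM, LFC -0.03 ± 0.19, 95% interval -0.41 to 0.35), at which time DUSP1, DUSP5, and DUSP6 were called. At 3 h it was 37.2, 29.97, and 35.2 CPM against 13.9, 24.8, and 20.4 CPM (LFC 0.79 ± 0.18, adjusted p = 0.0046), a call that was lost without non-treated replicate 1, the lowest control (LFC 0.58, adjusted p = 0.20). The mercury libraries lay at 27.4, 35.4, and 29.2 CPM at 6 h (LFC 1.07 ± 0.19, adjusted p = 3.0e-05) and at 49.9, 44.7, and 42.9 CPM at 12 h (LFC 1.37 ± 0.18, adjusted p = 8.2e-09). They reached 57.3, 60.4, and 53.5 CPM at 24 h, or 3.62-fold (LFC 1.85 ± 0.18, adjusted p = 1.6e-13). With cadmium, DUSP4 was called at 6 h (25.3, 23.8, and 29.5 CPM, LFC 0.85 ± 0.20, adjusted p = 0.0061) and at 12 h (35.8, 34.7, and 37.9 CPM, LFC 1.03 ± 0.18, adjusted p = 2.8e-05). The call at 6 h was lost without cadmium replicate 3 (LFC 0.76, adjusted p = 0.060), and without replicate 1 the LFC was 0.87 ± 0.22. At 24 h, the cadmium libraries were back at 23.6, 17.5, and 21.9 CPM and overlapped the non-treated ones (LFC 0.42 ± 0.19, adjusted p = 0.32).

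DUSP6 removes phosphate from ERK in the cytoplasm and is a standard readout of ERK activity. With mercury, it gave 42.8, 33.9, and 35.4 CPM at 1.5 h against 22.0, 22.7, and 19.5 CPM (LFC 0.80 ± 0.20, adjusted p = 0.029). This first call was lost without mercury replicate 1 or 3 or any one of the 3 non-treated libraries (adjusted p 0.070 to 0.28). At 3 h, mercury gave 41.2, 52.2, and 38.5 CPM against 13.3, 13.2, and 14.8 CPM (LFC 1.68 ± 0.20, adjusted p = 6.2e-09). The mercury libraries then lay at 41.7, 32.5, and 44.7 CPM at 6 h, 45.0, 53.8, and 46.7 CPM at 12 h, and 52.2, 52.1, and 46.3 CPM at 24 h. The LFCs at those times were 1.75 ± 0.22, 1.47 ± 0.20, and 1.33 ± 0.19, and the mercury and non-treated libraries did not overlap at any of the 5 times.

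Cadmium raised DUSP6 at 6 h only among the calls, with 26.8, 37.5, and 31.6 CPM against 11.4, 12.1, and 11.9 CPM (LFC 1.43 ± 0.22, adjusted p = 6.6e-06), and an LFC of 1.54 ± 0.24 without replicate 1. At 3 h and at 12 h, the cadmium libraries also lay above the non-treated ones, with LFCs of 0.67 ± 0.22 (adjusted p = 0.28) and 0.57 ± 0.21 (adjusted p = 0.081). Without non-treated replicate 2, the highest control, the value at 12 h was called (LFC 0.75, adjusted p = 0.040). Arsenic values were 10.8, 13.6, and 16.2 CPM at 6 h and 28.1, 21.4, and 16.5 CPM at 24 h, and no arsenic LFC of DUSP6 exceeded 0.26, with 95% intervals reaching 0.68.

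**Figure D2:**
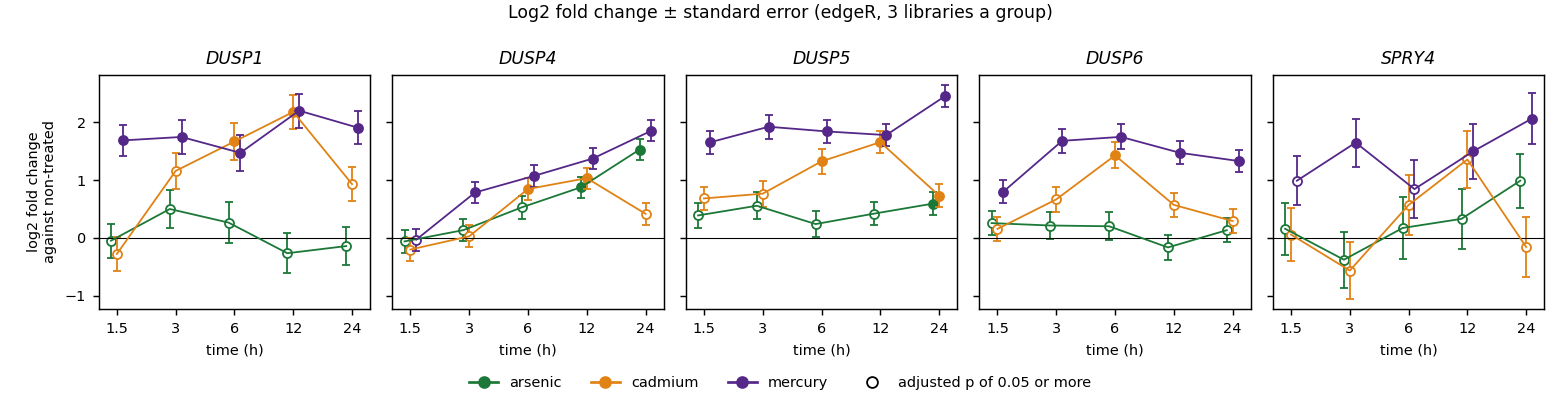
Log2 fold change against non-treated cells of the same time (vertical axis) over time (horizontal axis, 1.5 to 24 h) for DUSP1, DUSP4, DUSP5, DUSP6, and SPRY4 with arsenic (green), cadmium (orange), and mercury (purple). Error bars are the standard error of edgeR's fit, filled points are called, and open points are not. Mercury is above 0 at all times except for DUSP4 at 1.5 h, cadmium is highest at 6 or 12 h, and the arsenic points are filled only for DUSP4 at 12 and 24 h and DUSP5 at 24 h.

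SPRY4 and SPRY2 bind signalling proteins downstream of growth factor receptors and limit the activation of RAS and RAF. SPRY4 had few counts, between 2 and 99 per library, and a correspondingly larger error. At 3 h, mercury gave 16.2, 25.6, and 10.7 CPM against 3.93, 9.58, and 3.25 CPM (LFC 1.65 ± 0.42, adjusted p = 0.017), which was lost without mercury replicate 2 or non-treated replicate 1 or 3 (adjusted p 0.19 to 0.30). At 12 h, it gave 8.18, 8.74, and 8.64 CPM against 2.52, 2.47, and 3.93 CPM (LFC 1.50 ± 0.48, adjusted p = 0.022), which was lost without mercury replicate 2 or 3 or non-treated replicate 1 or 2 (adjusted p 0.0534 to 0.090). The call at 24 h, with 22.7, 11.8, and 10.2 CPM against 5.15, 0.615, and 4.62 CPM, held in all leave-outs (LFC 2.07 ± 0.44, adjusted p = 0.00019). At 1.5 and 6 h, mercury gave LFCs of 0.99 ± 0.43 (adjusted p = 0.73) and 0.84 ± 0.50 (adjusted p = 0.36).

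Cadmium and arsenic gave no calls for SPRY4. The highest cadmium value came at 12 h, at 9.98, 6.49, and 7.02 CPM, all above the non-treated libraries (LFC 1.36 ± 0.49, adjusted p = 0.072). It was called by DESeq2 (LFC 1.38, adjusted p = 0.044), without a filter on low counts (LFC 1.35, adjusted p = 0.0484), and in a fit of only the groups compared (LFC 1.37, adjusted p = 0.034). The highest arsenic value came at 24 h, at 8.70, 4.92, and 7.66 CPM (LFC 0.99 ± 0.47, adjusted p = 0.16).

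SPRY2 had 2 to 46 counts per library and was not called against non-treated cells in edgeR. At 1.5 h, the mercury libraries (12.3, 6.40, and 9.16 CPM) lay above the non-treated ones (2.23, 4.53, and 3.58), with an LFC of 1.43 ± 0.44 (adjusted p = 0.21). At 3 h, they again did not overlap (7.78, 10.1, and 4.44 CPM against 1.81, 2.40, and 2.96), and the LFC of 1.63 ± 0.47 (adjusted p = 0.0541) came close to the threshold. DESeq2 (LFC 1.64, adjusted p = 0.035), a stricter filter on low counts (LFC 1.62, adjusted p = 0.036), and a fit of only the groups compared (LFC 1.62, adjusted p = 0.031) called it. So did leaving out mercury replicate 3 at 3 h, arsenic replicate 1 at 24 h, or cadmium replicate 3 at 24 h (adjusted p 0.030 to 0.0488). By 6 h, mercury (2.74, 3.19, and 4.17 CPM) and non-treated values overlapped (LFC 0.01 ± 0.49).

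SPRED1 brings neurofibromin to the membrane, where it switches RAS off. It had at least 52 counts in each library and was not called against non-treated cells with any metal. Over all 15 comparisons its LFC stayed between -0.39 and 0.37, and the 95% intervals between -0.81 and 0.78, so that 2-fold changes lay outside them. Its lowest values were with cadmium at 24 h (21.4, 14.9, and 21.9 CPM against 29.4, 23.4, and 23.4 in non-treated cells), where the LFC was -0.39 ± 0.21 (adjusted p = 0.44).

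Of the phosphatases of JNK and p38, DUSP16 was not called either. It had 23 to 75 counts per library, with LFCs from -0.75 to 0.57 and 95% intervals from -1.30 to 1.13. With mercury at 24 h, it gave 21.1, 18.6, and 17.8 CPM against 10.8, 11.1, and 20.5 CPM (LFC 0.44 ± 0.25, adjusted p = 0.19). Non-treated replicate 3 was the high control, and without it the value was called (LFC 0.82, adjusted p = 0.022). DUSP8 had 0 to 24 counts per library, and its LFCs ran from -1.54 to 1.18 with no call. Over the 15 comparisons, its 95% intervals ran from -2.96 to 2.37, so that several-fold changes were not excluded in some of them. The most DUSP8 was counted with mercury at 1.5 h, with 15, 24, and 22 counts against 14, 11, and 1 in the non-treated libraries, which overlapped. The fewest were counted with cadmium at 12 h, with 0, 4, and 3 counts against 7, 9, and 11 (LFC -1.54 ± 0.71, adjusted p = 0.18).

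DUSP10 was at 0 counts in 8 libraries and at 3 or fewer in 29, and a floor of 3 counts covers counting error only. With mercury at 24 h, there were 3, 10, and 8 counts against 5, 0, and 4 in non-treated cells, and with arsenic 4, 0, and 0. When the table was fitted without the filter, the LFC of DUSP10 ran from -1.01 to 1.54 over the 15 comparisons, and the lowest adjusted p was 0.45. Differences of this size in DUSP10 could therefore not be told apart from no change at this depth.

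The metals were next compared directly, which asks whether the responses differ and cancels the non-treated libraries. Of 135 tests, 40 were called. In 39 of them the gene was lower with the first metal of the pairs arsenic and cadmium, arsenic and mercury, and cadmium and mercury. The exception was DUSP4 at 24 h, which was higher with arsenic (37.1, 50.6, and 48.6 CPM) than with cadmium (23.6, 17.5, and 21.9 CPM), with an LFC of 1.11 ± 0.17 (adjusted p = 1.5e-06). A total of 26 of the 40 calls held whichever library was left out. The pairs share libraries, since each metal stands in 2 of the 3 pairs, and their counts are not independent.

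Between arsenic and mercury, 3, 6, 3, 3, and 3 of the 9 genes were called from the first to the last time, all lower with arsenic. Over all genes, 1.56%, 1.89%, 4.48%, 6.84%, and 11.4% were called in either direction. DUSP1 and DUSP5 were called at all 5 times. For DUSP1, the LFC of arsenic relative to mercury was -1.73 ± 0.27 (adjusted p = 8.4e-06) at 1.5 h and -2.47 ± 0.30 (adjusted p = 5.3e-09) at 12 h. For DUSP5, it was -1.86 ± 0.18 (adjusted p = 1.7e-12) at 24 h. DUSP6 was called from 3 h on, with its largest difference at 12 h (-1.64 ± 0.20, adjusted p = 5.1e-09). SPRY2 was called at 1.5 h (-1.85 ± 0.45, adjusted p = 0.015) and at 3 h (-2.16 ± 0.51, adjusted p = 0.0072), and SPRY4 at 3 h (-2.03 ± 0.44, adjusted p = 0.0026). At 3 h, SPRY2 lay at 2.47, 1.75, and 0.666 CPM with arsenic and 7.78, 10.1, and 4.44 CPM with mercury. DUSP4 differed at 3 h (-0.65 ± 0.18, adjusted p = 0.037) and did not pass at 24 h, where the LFC was -0.33 ± 0.16 (adjusted p = 0.20), with a 95% interval of -0.65 to -0.00483. At 12 h, the DUSP4 difference of -0.50 ± 0.17 (adjusted p = 0.0545) did not pass. It was called by DESeq2 (adjusted p = 0.031), with a stricter filter (adjusted p = 0.045), in a fit of only the groups compared (adjusted p = 0.043), and without any one of 7 libraries of other groups (adjusted p 0.041 to 0.0498). These were arsenic replicates 1 and 3 at 3 h, cadmium replicate 3 at 24 h, and non-treated replicates 1 and 2 at 1.5 h and at 3 h.

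Several of these calls were lost when 1 library was left out. At 1.5 h, that of SPRY2 was lost without arsenic replicate 1 or 2 or mercury replicate 1 (adjusted p 0.0540 to 0.17). At 3 h, mercury replicate 2 had the highest DUSP1, SPRY2, and SPRY4 of its group. Without it, SPRY4 (LFC -1.63, adjusted p = 0.085), DUSP1 (LFC -0.80, adjusted p = 0.31), and SPRY2 (LFC -1.86, adjusted p = 0.099) were not called between arsenic and mercury. DUSP1 was also lost without arsenic replicate 1 (LFC -1.15, adjusted p = 0.059) and SPRY2 without arsenic replicate 3 (LFC -1.78, adjusted p = 0.13). The DUSP4 call at 3 h was lost without arsenic replicate 1 or 2 or mercury replicate 1 or 3 (adjusted p 0.096 to 0.21). It was also lost without a filter on low counts (adjusted p = 0.13), in a fit of only the groups compared (adjusted p = 0.13), without both libraries of low mitochondrial share (adjusted p = 0.099), and where an LFC beyond 1 was required. The other 5 genes called at 3 h were still called without arsenic replicate 2, whose mitochondrial share was low. Their LFCs were then -1.29 for DUSP1, -1.39 for DUSP5, -1.39 for DUSP6, -2.20 for SPRY2, and -1.81 for SPRY4 (adjusted p 4.1e-05 to 0.036). At 6 h, the DUSP1 call was lost without arsenic replicate 1 or 2 or mercury replicate 3 (adjusted p 0.069 to 0.077).

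Between arsenic and cadmium, 0, 0, 3, 3, and 2 of the 9 genes were called at the 5 times. The background was 0%, 0.138%, 1.18%, 5.77%, and 10.2% of all genes in either direction. At 1.5 h, edgeR called 0 genes of the whole table, with 835 at an unadjusted p under 0.05 and 1 higher and 2 lower by DESeq2. None of the 9 genes had an unadjusted p under 0.05 at 1.5 h, and 2 did at 3 h, with no DESeq2 call at either time. At 3 h, 811 of all 12341 genes passed that threshold. At 6 h, DUSP1, DUSP5, and DUSP6 were lower with arsenic, with LFCs of -1.40 ± 0.30, -1.08 ± 0.20, and -1.23 ± 0.21. Without cadmium replicate 1, whose mitochondrial share was low, they were -1.66, -1.11, and -1.34, and all were called. The same phosphatases were called at 12 h, when DUSP1 stood at 7.85, 6.04, and 9.21 CPM with arsenic and at 28.6, 41.9, and 55.1 CPM with cadmium (LFC -2.44 ± 0.30, adjusted p = 7.8e-09). At 24 h, DUSP1 was still lower with arsenic (LFC -1.07 ± 0.31, adjusted p = 0.014), while DUSP4 was higher. The DUSP1 call at 6 h was lost without arsenic or cadmium replicate 2 (adjusted p 0.056 to 0.065). The DUSP6 call at 12 h was lost without arsenic replicate 1 or 2 or cadmium replicate 1 or 3 (adjusted p 0.056 to 0.23), in a fit of only the groups compared (adjusted p = 0.05004), and where an LFC beyond 1 was required. The DUSP1 call at 24 h was lost without arsenic replicate 1 or 3 or cadmium replicate 2 (adjusted p 0.0545 to 0.23) and in a fit of only the groups compared (adjusted p = 0.087).

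Between cadmium and mercury, 2, 4, 0, 1, and 7 of the 9 genes were called, each lower with cadmium. The background was 0.656%, 1.78%, 3.78%, 3.29%, and 20% in either direction. At 1.5 h, DUSP1 (LFC -1.96 ± 0.27, adjusted p = 4.4e-07) and DUSP5 (LFC -0.97 ± 0.18, adjusted p = 0.00046) were lower with cadmium. At 6 h, there were 0 calls in edgeR, with or without both libraries of low mitochondrial share, and 0 in DESeq2. At an unadjusted p under 0.05, 1 gene of the 9 passed, as did 1979 of all 12341 genes. At 12 h, the LFC of DUSP1 was -0.02 (95% interval -0.54 to 0.49) and only DUSP6 was called (LFC -0.90 ± 0.20, adjusted p = 0.0019). At 24 h, the calls were DUSP1, DUSP4, DUSP5, DUSP6, SPRY2, SPRY4, and SPRED1. Their LFCs ran from -0.61 for SPRED1 (adjusted p = 0.029) to -2.22 for SPRY4 (adjusted p = 0.00015). SPRED1 lay at 21.4, 14.9, and 21.9 CPM with cadmium and 28.6, 34.7, and 25.1 CPM with mercury, where the cadmium libraries lay below the non-treated ones (29.4, 23.4, and 23.4) and the mercury libraries overlapped them.

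Of the cadmium and mercury calls, that of DUSP5 at 1.5 h was lost without mercury replicate 3 (LFC -0.75, adjusted p = 0.058). That of DUSP4 at 3 h was lost without cadmium replicate 1 or 2 or mercury replicate 1 (adjusted p 0.057 to 0.16). SPRED1 at 3 h was not called (LFC -0.58 ± 0.20, adjusted p = 0.13), but passed without cadmium replicate 3 (LFC -0.76, adjusted p = 0.0499). At 24 h, DUSP1 was lost without cadmium replicate 3 (LFC -0.65, adjusted p = 0.097). SPRY2 was lost without cadmium replicate 1 or 3 or any one mercury library (adjusted p 0.059 to 0.21), without a filter on low counts (adjusted p = 0.10), and in a fit of only the groups compared (adjusted p = 0.076). SPRED1 was lost without cadmium replicate 2 or mercury replicate 1 or 2 (adjusted p 0.055 to 0.17), in a fit of only the groups compared (adjusted p = 0.065), and where an LFC beyond 1 was required.

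**Figure D3:**
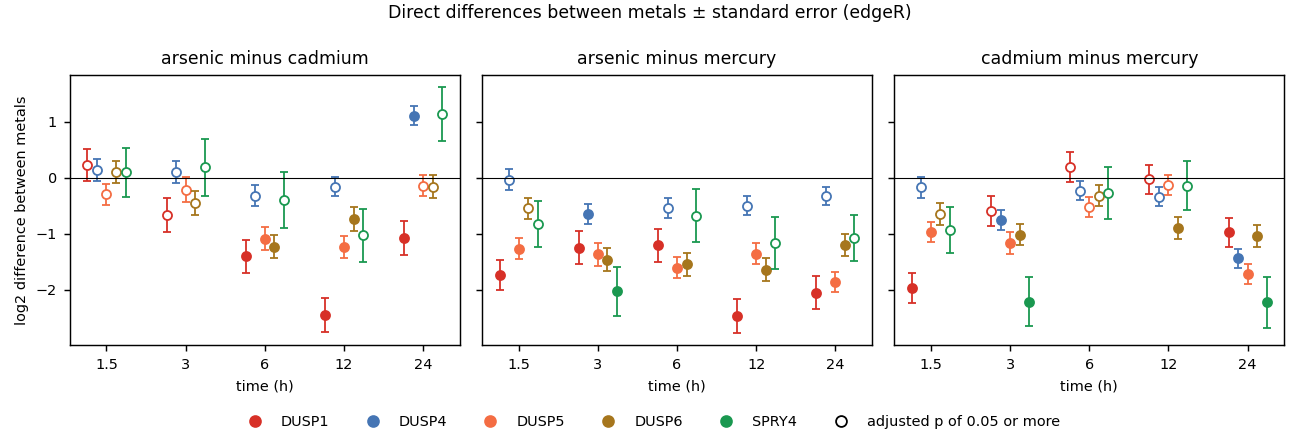
Log2 difference between 2 metals at the same time (vertical axis) over time (horizontal axis, 1.5 to 24 h) for DUSP1, DUSP4, DUSP5, DUSP6, and SPRY4, with standard errors of edgeR's fit. Values below 0 are lower with the first-named metal, and filled points are called. All filled points lie below 0 except DUSP4 at 24 h between arsenic and cadmium (1.11).

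Whether the response changed between an early and a late time point was tested as the difference between the LFC at 24 h and that at 3 h. DUSP4 was called with arsenic, where its LFC rose by 1.39 ± 0.26 (adjusted p = 0.00012), and with mercury, where it rose by 1.07 ± 0.25 (adjusted p = 0.0023). With cadmium, its difference was 0.39 ± 0.27 and 0 of the 9 genes were called. At an unadjusted p under 0.05, 0 of them passed with cadmium, against 1187 of all 12341 genes, and DESeq2 called 0 of the 9 as well. Over all genes, 6.17%, 0.438%, and 10% were called with arsenic, cadmium, and mercury. Both DUSP4 calls held in all 60 leave-outs, and the difference with arsenic was 1.42 without arsenic replicate 2 at 3 h, whose mitochondrial share was low. For the other 8 genes, the differences with mercury ran from -1.09 (DUSP8) to 0.53 (DUSP5), and none passed. With arsenic, 2 of the 9 genes had an unadjusted p under 0.05, DUSP4 included, as did 2427 of all 12341 genes. The LFC of SPRY4 with arsenic was -0.38 at 3 h and 0.99 at 24 h, a difference that was not called.

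In non-treated cells, the levels at 3, 6, 12, and 24 h were compared with those at 1.5 h, which measures how much these genes move in culture. No gene of the 9 was called in edgeR in the 36 tests, against a background of 0.122%, 0.486%, 4.09%, and 3.29% of all genes. At 3, 6, 12, and 24 h, 4, 3, 1, and 1 of the 9 passed at an unadjusted p under 0.05. Each had a negative LFC. Of all 12341 genes, 544, 1433, 2086, and 2110 passed that threshold in either direction. DESeq2 called 0, 1, 1, and 0 of the 9, and gave no adjusted p for 13 of the 36 tests. The 3 libraries of DUSP1 at 1.5 h (18.5, 22.0, and 15.1 CPM) lay above all 12 later ones, and the LFC was -0.96 ± 0.32 (adjusted p = 0.66) at 3 h and -0.998 ± 0.32 (adjusted p = 0.058) at 12 h. The value at 12 h was called by DESeq2 (LFC -1.01, adjusted p = 0.042), without a filter on low counts (adjusted p = 0.0072), with a replicate block (adjusted p = 0.030), in a fit of only the groups compared (adjusted p = 0.022), without both libraries of low mitochondrial share (adjusted p = 0.0472), and without any one of 6 libraries (adjusted p 0.031 to 0.0487). These were non-treated replicate 3 at 12 h, cadmium replicate 1 at 6 h, cadmium replicates 2 and 3 at 24 h, mercury replicate 2 at 3 h, and mercury replicate 3 at 6 h. At 6 h, the LFC of DUSP1 was -1.04 ± 0.33 (adjusted p = 0.16), and it was called without a filter (adjusted p = 0.016) and in a fit of only the groups compared (adjusted p = 0.033). DUSP6 gave 11.4, 12.1, and 11.9 CPM at 6 h, also below its libraries at 1.5 h (LFC -0.86 ± 0.23, adjusted p = 0.067), and was called by DESeq2 (LFC -0.87, adjusted p = 0.027), in a fit of only the groups compared (adjusted p = 0.043), and without non-treated replicate 2 at 24 h (LFC -0.87, adjusted p = 0.0460). At 3 h, the LFCs of DUSP5, DUSP6, and DUSP16 were -0.62, -0.64, and -0.87 (adjusted p 0.53 to 0.86). Comparisons with metal at 3 and 6 h therefore stood against control levels of DUSP1 and DUSP6 lower than those at 1.5 h. From 1.5 to 3 h, mean DUSP6 went from 21.4 to 13.7 CPM in non-treated cells and from 37.3 to 43.98 CPM with mercury. Mean DUSP1 went from 18.5 to 9.57 CPM and from 59.9 to 31.8 CPM, respectively. A change of LFC between these times thus also holds the change of the control.

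The rest of the pathway was read from 7 lists of genes, each described by its calls and its median. The last list also holds genes of general stress, which are not particular to this pathway. These lists were fitted in the same model, and no test of a list was run. Counts are given from the first to the last of the 5 times, and are to be read against the share of all genes that each metal raised or lowered, given above. At 24 h, this was 6.54% higher and 7.75% lower with arsenic, 1.56% and 0.632% with cadmium, and 13.9% in each direction with mercury. Of 16 other DUSP and Sprouty family genes, 12 were tested. Mercury raised 0, 0, 0, 0, and 1 of them and lowered 0, 0, 0, 2, and 2 at the 5 times, cadmium raised none and lowered none, and arsenic raised none and lowered 0, 0, 0, 1, and 1. Their median LFC with mercury at 24 h was -0.03. DUSP7, a cytoplasmic phosphatase of ERK, fell with arsenic at 24 h (LFC -0.78 ± 0.19, adjusted p = 0.0021) and with mercury at 12 h (LFC -0.67 ± 0.18, adjusted p = 0.0062). DUSP22 and DUSP23, smaller phosphatases, fell with mercury at 24 h, with LFCs of -0.61 and -0.71. The 1 gene that rose was DUSP12, named here after its value was seen (LFC 0.54 ± 0.16, adjusted p = 0.0075).

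Of the 21 ERK cascade genes from adaptors to kinases, all were tested, and mercury raised 0, 0, 1, 2, and 3 and lowered 0, 0, 0, 0, and 3. The counts with mercury at 24 h, 3 of 21 in each direction, were near the share of all genes. MAP2K1, which phosphorylates ERK, rose with mercury at 24 h (LFC 1.52 ± 0.26, adjusted p = 5.0e-06), while HRAS fell (LFC -0.67 ± 0.18, adjusted p = 0.0035) and so did ARAF (LFC -0.98 ± 0.23, adjusted p = 0.00051). Cadmium gave 1 higher and 1 lower call at 12 h, and arsenic gave 1 lower call at 6 h (ARAF) and 2 at 24 h (HRAS, and MAP2K2, which was named after its value was seen). Of the 27 JNK and p38 cascade genes tested, mercury raised 1, 3, 3, 4, and 5 and lowered 0, 0, 0, 2, and 4, cadmium raised 0, 1, 3, 4, and 2 and lowered 0, 0, 0, 1, and 0, and arsenic raised 0, 1, 1, 1, and 1 and lowered 0, 0, 0, 0, and 2. GADD45A, an inducible activator of that cascade, was raised by mercury at all 5 times, with an LFC of 2.02 ± 0.17 (adjusted p = 4.3e-15) at 12 h. GADD45B rose with mercury (LFC 1.63 ± 0.11, adjusted p = 1.9e-20) and cadmium (LFC 1.40 ± 0.11, adjusted p = 7.0e-17) at 24 h and fell with arsenic (LFC -0.65 ± 0.12, adjusted p = 2.9e-05). MAPK11, a form of p38, fell with mercury at 24 h (LFC -1.45 ± 0.42, adjusted p = 0.0060).

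Among 15 other inhibitors of receptor and RAS signalling, mercury raised 0, 2, 3, 3, and 3 and lowered 0, 0, 1, 0, and 0. Cadmium raised 0, 0, 2, 1, and 1 and lowered none, and arsenic raised none and lowered none. ERRFI1, which binds and blocks the EGF receptor, had the largest change. It rose with mercury from 3 h (LFC 1.95 ± 0.20, adjusted p = 2.6e-11) to 24 h (1.98 ± 0.20, adjusted p = 2.9e-12) and with cadmium at 6 h (1.44 ± 0.22), 12 h (1.75 ± 0.22), and 24 h (0.80 ± 0.21). With arsenic it was not called, with an LFC of 0.57 ± 0.22 (adjusted p = 0.066) at 24 h. SOCS3, an inhibitor of cytokine receptors, rose with mercury at 3, 6, and 12 h, by an LFC of 0.78 ± 0.15 (adjusted p = 6.6e-05) at 12 h. SH2B3, an adaptor that limits cytokine signalling, rose with mercury at 24 h (LFC 1.13 ± 0.27, adjusted p = 0.00088).

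Of 27 growth factors and receptors, 22 were tested, and mercury raised 1, 2, 3, 2, and 4 and lowered 0, 0, 0, 3, and 6. Cadmium raised 0, 0, 3, 4, and 1 and lowered 0, 0, 0, 1, and 2. Arsenic raised 0, 0, 1, 1, and 2 and lowered 0, 0, 0, 3, and 8, with a median LFC of -0.25 at 24 h. HBEGF, a ligand of the EGF receptor, rose with mercury at all 5 times, from an LFC of 1.28 ± 0.13 (adjusted p = 4.2e-11) at 1.5 h to 1.89 ± 0.13 (adjusted p = 6.5e-19) at 24 h, rose with cadmium from 6 h, and fell with arsenic at 24 h (LFC -1.02 ± 0.15, adjusted p = 4.9e-07). VEGFA, which acts on endothelium, rose with all 3 metals, with LFCs at 12 h of 1.24 ± 0.27 for arsenic, 1.35 ± 0.27 for cadmium, and 2.36 ± 0.26 for mercury. FGF5, a ligand of FGF receptors, fell at 24 h with arsenic (LFC -1.09 ± 0.10), cadmium (-0.47 ± 0.10), and mercury (-0.98 ± 0.10).

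Of 25 tested transcriptional targets of ERK, mercury raised 3, 6, 10, 14, and 16 and lowered 0, 0, 0, 2, and 3 from 1.5 to 24 h. Cadmium raised 0, 1, 5, 8, and 4 and lowered none. Arsenic raised 1, 0, 0, 2, and 2 and lowered 0, 0, 0, 5, and 7. The median LFC of this list with mercury was 0.21, 0.31, 0.54, 0.49, and 0.70. EGR1, an immediate early transcription factor, had its largest rise with mercury at 1.5 h (LFC 3.14 ± 0.19, adjusted p = 8.6e-21) and a smaller one at 24 h (0.67 ± 0.19, adjusted p = 0.0061). IER3, an early response gene, rose with mercury (LFC 2.71 ± 0.37, adjusted p = 1.6e-08) and cadmium (LFC 2.30 ± 0.37, adjusted p = 1.1e-05) at 24 h and fell with arsenic (LFC -1.67 ± 0.51, adjusted p = 0.016). PLAUR, the urokinase receptor, rose at 24 h with arsenic (LFC 0.52 ± 0.11), cadmium (0.50 ± 0.11), and mercury (1.86 ± 0.10).

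Of 17 tested targets of JNK, p38, and general stress, mercury raised 10, 12, 10, 11, and 13 and lowered none. Cadmium raised 0, 5, 9, 11, and 7 and lowered none, and arsenic raised 0, 4, 7, 8, and 6 and lowered 0, 0, 1, 3, and 1. HMOX1, the inducible haem oxygenase, rose with all 3 metals, with LFCs at 24 h of 7.55 ± 0.18 for arsenic, 4.79 ± 0.18 for cadmium, and 7.21 ± 0.18 for mercury. HSPA1A and HSPA1B encode nearly identical heat-shock proteins, so reads may be split between them. Their LFCs at 24 h were 1.59 ± 0.25 and 1.60 ± 0.16 with arsenic, and 6.51 ± 0.20 and 4.80 ± 0.17 with mercury.

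**Figure D4:**
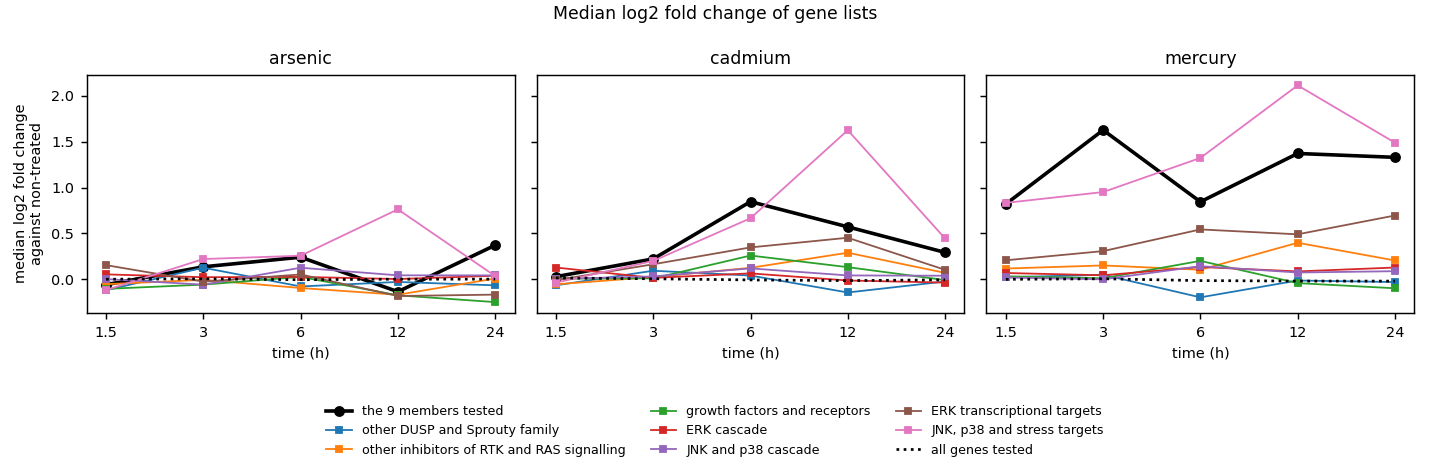
Median log2 fold change against non-treated cells (vertical axis) over time (horizontal axis, 1.5 to 24 h) for the 9 tested genes (black, solid), 7 lists of other genes of the pathway and of general stress (coloured), and all 12341 genes (dotted), by metal. With mercury, the 9 genes lie at or above 0.82 at all times, and of the lists only the targets of JNK, p38, and general stress come as high at any time. The genes and lists were chosen with earlier results of these data known.

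Pearson's correlation of mean log2 CPM over the 20 groups, which share their libraries and controls, was 0.91 between DUSP5 and DUSP6, 0.87 between DUSP1 and DUSP6, and 0.86 between DUSP1 and DUSP5. DUSP4 was closest to DUSP5 (0.73) and less like DUSP1 (0.45). SPRY4 correlated with DUSP5 at 0.79 and with SPRY2 at 0.66. The highest value of DUSP8 was 0.32, with SPRY2.

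Over the whole table, the genes with the most similar course were named for each of the 9, by the same correlation over 20 groups. For DUSP1 they were RND3 (0.93), SERTAD2 (0.89), and TRIB1 (0.88), and for DUSP5 TRIB1 (0.97), PPP1R15A (0.94), and RND3 (0.94), so that RND3 and TRIB1 stood in both. For DUSP6 they were PMAIP1 (0.91), MAFK (0.91), and DUSP5 (0.91). DUSP4 was closest to SLC38A1 (0.96), CLIC4 (0.95), and RSL24D1 (0.95), and SPRY4 to MAFF (0.87), GATA2 (0.87), and ITPRIP (0.85). Closest to SPRY2 were ARID3B (0.82), C16orf87 (0.80), and PHLDA1 (0.80). Closest to SPRED1 were PDCD6IP (0.85), CAMK2N1 (0.83), and BRIX1 (0.83). Closest to DUSP16 were UQCRC2 (0.86), GPX8 (0.85), and REEP5 (0.84). Closest to DUSP8 were ODAD4 (0.71), STARD4 (0.70), and ITFG1 (0.68). Each is the highest of many correlations and is given as a description.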

How the data were processed

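RNA of 1321N1 cells was made into 3′ mRNA libraries (QuantSeq 3′ FWD) and sequenced as single-end reads. The authors aligned reads to GRCh38 with STAR 2.7.9a and counted them per gene with regard to strand (GENCODE annotation), and the deposited values are these raw counts, without normalization. From these counts, 92 spike-in rows (0 counts) were left out, and library totals ran from 2215276 to 4404609 counts, so that genes with few counts, DUSP8 and DUSP10 above all, were measured with little precision.

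Groups came from the labels. edgeR 4.0.16 (R 4.3.3) was fitted to all 60 libraries with TMM scaling, after filterByExpr (minimum count 10, minimum total 15) had kept 12341 genes. Contrasts were tested by the quasi-likelihood F-test with Benjamini-Hochberg adjustment over all genes of a contrast, and called at an adjusted p under 0.05. SE is that of the fitted LFC, and intervals are 95%. The fit was run on counts simulated with its own estimates of spread, so that run cannot show how well the model describes these libraries. Named are all 10 genes, up to 3 genes per pathway list (the largest LFC among those called against non-treated cells with a mean of at least 20 counts), and the 3 genes most correlated with each tested gene. Exceptions are marked. The genes and lists were chosen with earlier results of these data known. Alternatives were DESeq2 1.42.0, RLE scaling, no filter or a stricter one (30), a fit of only the groups compared, a replicate block, an added LFC threshold of 1, and leaving out each library. Leaving out both libraries of low mitochondrial share was added after seeing the data. Promoters were RefSeq sequences, and none was listed here for DUSP4 and DUSP5.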

Additional observations from a re-analysis of the deposited data

Results flagged for a closer look

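The effect of a metal on DUSP4 differed between 3 h and 24 h by a test of the difference itself in edgeR. With arsenic, the LFC at 24 h exceeded that at 3 h by 1.39 (adjusted p = 0.00012), and with mercury by 1.07 (adjusted p = 0.0023). Both differences share the non-treated libraries of those times. All 3 libraries with arsenic and all 3 with mercury at 24 h lay above the libraries of the same metal at 3 h.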

How the results depend on the processing

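No call changed its direction under any alternative. The 33 calls against non-treated cells became 36 without a filter on low counts, 35 in DESeq2, which shared all 33, and 27 with an LFC beyond 1 required, and ranged from 31 to 34 when 1 library was left out. The 40 calls between metals ranged from 33 (LFC beyond 1) to 41 (stricter filter), and from 37 to 41 when 1 library was left out. DESeq2 shared 36 of them and gave no adjusted p for the other 4. DESeq2 gave no adjusted p for 28 of the 135 tests against non-treated cells and 31 of the 135 between metals. The same held for 13 of the 36 tests over time in non-treated cells and 6 of the 27 between 24 h and 3 h. Such tests could not be called by it. The 2 differences between 24 h and 3 h stayed at 2 under all alternatives. Non-treated cells over time, with 0 calls, gave 2 without a filter, 1 with the replicate block, 3 in a fit of only the groups compared, 2 in DESeq2, and 1 without both libraries of low mitochondrial share, and from 0 to 1 when 1 library was left out, and the cause was not tested. Treated and non-treated libraries of the same time and replicate number did not deviate together (45 pairs, correlations of -0.278 to 0.0837, median -0.00799). No pairing by number was thus seen in these pairs, and pairs between metals or between times were not looked at. A replicate block gave 34 calls against non-treated cells and 40 between metals, which included all 33 and all 40. Depth limited DUSP8, DUSP10, SPRY2, and SPRY4 most.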
